A study of Mus musculus with 8 samples.

Results

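Expression of 10 members of the T-box family of transcription factors was followed in embryonic mouse lung: Tbx1, Tbx2, Tbx3, Tbx4, Tbx5, Tbx6, Tbx15, Tbx18, Tbx20 and Eomes. They were taken by symbol, as probe sets annotated with that gene alone, and each of the 10 had exactly 1 such probe set among the 22180 genes with a single symbol. Whole lungs of 8 embryos at embryonic day 14.5, on a mixed C57BL/6 x 129S6 background, had been hybridised to 1 array each. The 4 mutant embryos carried Shh-cre and floxed Ezh2 on both copies. The 4 control embryos carried Shh-cre alone, so the driver was common to both groups. The embryos came from 4 litters of 2, and no litter held both genotypes. Ezh2 encodes the methyltransferase of the Polycomb repressive complex PRC2, and Shh-cre is active in cells that express Shh, which in the lung are epithelial. The values therefore average a recombined epithelium with mesenchyme, vessels and mesothelium that the driver leaves intact. The set was put together with the increase of Tbx15 already known.

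T-box factors bind DNA through a shared domain, the T-box, and act in the embryo as regional switches. Some of them activate and others repress transcription. In the developing lung, Tbx2, Tbx3, Tbx4 and Tbx5 are known from the mesenchyme, and Tbx1 from the epithelium. Tbx4 and Tbx5 act upstream of Fgf10, the mesenchymal growth factor that drives branching. Tbx2 and Tbx3 are repressors that keep mesenchymal cells dividing and hold down inhibitors of the cell cycle. Tbx15, Tbx18, Tbx20, Tbx6 and Eomes are known chiefly from other organs, among them limb and facial skeleton, heart, ureter, somites and brain.

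Array medians lay between 7.05 and 7.12 on the log2 scale, and correlations between arrays lay between 0.991 and 0.998. Xist was low in 1 mutant (embryo 3) and in 2 controls (embryos 1 and 2, littermates), so sex and litter cannot be told apart among the controls. The lung markers Nkx2-1, Foxf1 and Sftpc were bright in both groups, with mean log2 values of 10.74, 11.86 and 12.93 in mutants and 10.79, 11.88 and 12.85 in controls. Ezh2 itself had a log2 value of 11.78 ± 0.02 in mutants and 11.87 ± 0.05 in controls (SD, n = 4 each), a difference of −0.09 that missed the threshold, an adjusted p of 0.05 (limma, BH-adjusted p = 0.652; BH stands for Benjamini-Hochberg). Where its probe set lies relative to the floxed exons is not stated, so this level checks neither the deletion nor the labels. No PRC2 gene of 11 measured passed by limma, and 0 had an unadjusted p under 0.05. Aebp2, Suz12 and Phf19 had the largest changes, of 0.11, −0.10 and −0.16.

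Against this background 1 of the 10 T-box genes rose and 1 fell. Tbx15 was 5.58-fold higher in mutant lungs, Tbx1 was 0.726 times its control level, and the other 8 were not called. That is 2 of 10 called, and 5 of 10 at an unadjusted p under 0.05. Over all 22180 genes, 0.604% were called higher and 0.248% lower at an adjusted p of 0.05 by limma, with litter as a random effect. Calls in either direction came to 0.852%, and 9.87% of all genes had an unadjusted p under 0.05. In 4 of the 10 genes (Tbx15, Tbx18, Tbx2 and Tbx3) every mutant lay above every control, against 4.48% of all genes. In 1 of the 10, Tbx1, every mutant lay below every control, against 3.6% of all genes. Without regard to direction 5 of the 10 showed no overlap, and 8.07% of all genes did. The median log2 change over all genes was 0.007. Because whole lungs were measured, a different number of cells of a type and a different amount of RNA per cell cannot be told apart in any of these values.

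Tbx15 shapes the limb, shoulder and facial skeleton, the dermal pigment pattern and muscle fibres. Its log2 values in mutants were 8.32, 7.75, 8.53 and 8.49, and in controls 5.89, 6.02, 5.74 and 5.53. The groups were 1.73 apart at their nearest embryos, and the mutants varied more among themselves than the controls did (SD 0.36 in mutants and 0.21 in controls, n = 4 each). The log2 change was 2.48 ± 0.17 (SE), with a 95% interval of 2.10 to 2.86, which is 4.28 to 7.26-fold. Limma gave it a BH-adjusted p of 4.34e-05. An exact two-sided permutation over embryos gave p = 0.0286, the lower limit for 4 embryos a group. No other of the 22180 genes had a larger log2 change in either direction. Both mutant litters were high, at mean log2 values of 8.03 (embryos 1 and 2) and 8.51 (embryos 3 and 4), and both control litters were low, at 5.96 and 5.63. The call held in all 25 alternative fits, with log2 changes of 2.24 to 2.72.

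The array gave no detection calls, so 1105 olfactory receptor genes, which a lung hardly uses, served as a measure of its background. Their 95th percentile was a log2 value of 6.82. All 4 controls had Tbx15 values below that level and all 4 mutants had values above it. Since a log2 value also depends on how well a probe set binds, the level says only that control lungs gave no Tbx15 signal beyond that of most olfactory receptors.

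**Figure D1:**
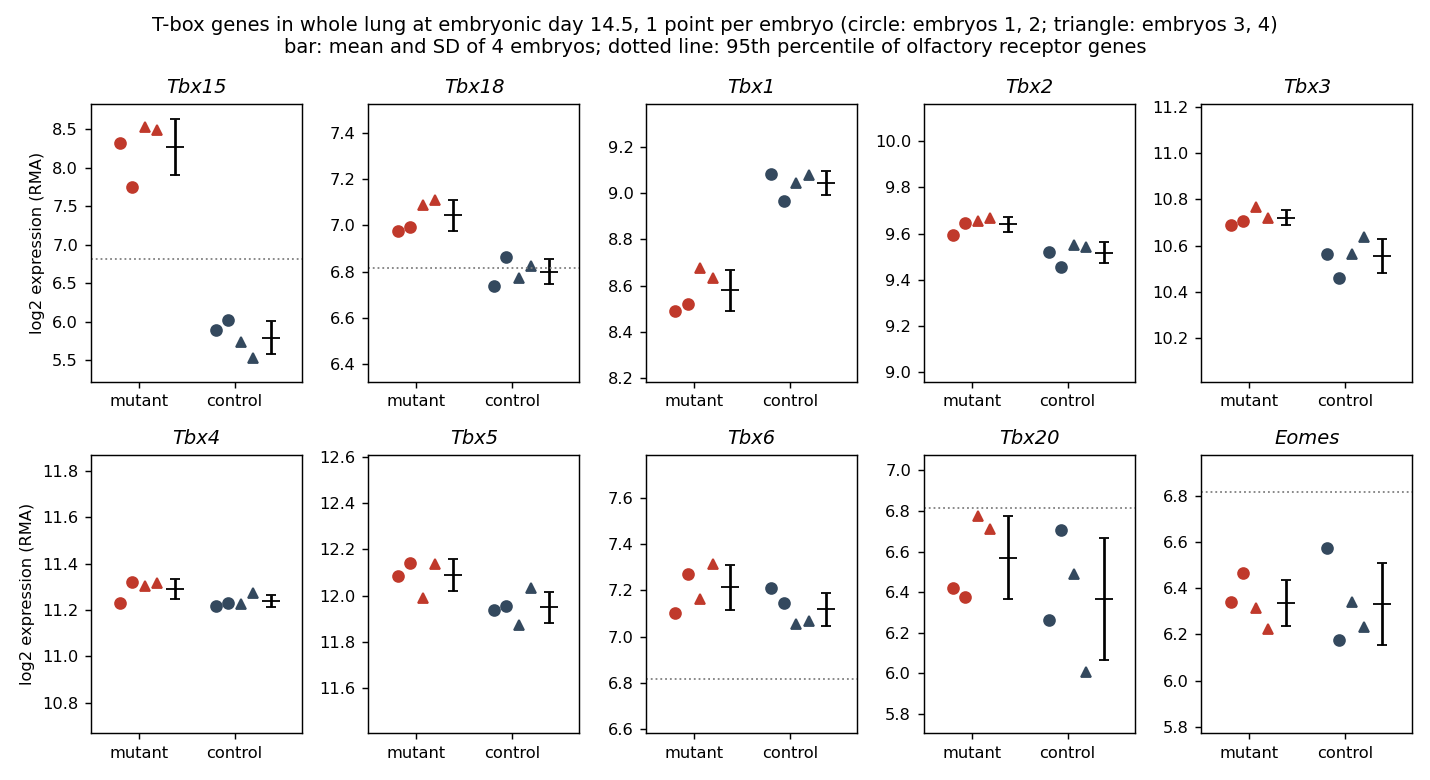
Log2 expression of the 10 T-box genes in each embryo, mutants left and controls right, with the mean and SD of 4 embryos beside the points. The dotted line marks the 95th percentile of olfactory receptor genes (6.82) where it falls in range, and the panels have different vertical ranges. Tbx15 in mutants lies at 7.75 to 8.53, above all controls at 5.53 to 6.02, while Tbx1 lies lower in mutants.

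Tbx18 is the close paralogue of Tbx15 in the subfamily that also holds Tbx22, and is known from somites, ureter mesenchyme and the sinus node of the heart. Its values were 6.98, 6.99, 7.09 and 7.11 in mutants, and 6.74, 6.86, 6.77 and 6.82 in controls. The groups did not overlap, but the gap between them was only 0.11. The log2 change of 0.24 ± 0.06 (SE) missed the threshold (limma, BH-adjusted p = 0.135 over all genes). Its 95% interval, 0.11 to 0.38, lay wholly below that of Tbx15. With the Xist level as a covariate its change was 0.25 and passed (limma, BH-adjusted p = 0.0394), the only one of the 25 alternatives in which it did. Tbx22, the other paralogue and a gene of palate formation, stayed uncalled at 0.05.

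Tbx1 patterns the pharyngeal arches and the outflow tract of the heart, and lung epithelium is one of its sites of expression. Its log2 values were 8.49, 8.52, 8.68 and 8.63 in mutants, and 9.08, 8.97, 9.04 and 9.08 in controls. The groups were 0.29 apart at their nearest embryos. Tbx1 fell by 0.46 on the log2 scale, with an SE of 0.06 (limma, BH-adjusted p = 0.00599). The exact permutation p was 0.0286, two-sided, the value of any gene whose groups do not overlap. Litter means were 8.51 and 8.65 in mutants, and 9.02 and 9.06 in controls. The call held in 24 of 25 alternatives and was lost with litter means in place of embryos, where limma gave a BH-adjusted p of 0.0751.

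Epithelial markers did not all lie the same way. Of 16 measured, 1 fell and 0 rose, and the alternatives gave 1 to 4 calls in this list. Of the 16 changes 12 were negative, where 52.9% of all genes had positive ones. An unadjusted p under 0.05 was found in 7 of the 16, against 9.87% of all genes. In 6 of the 16 every mutant lay below every control, against 3.6% of all genes. The one that fell was Foxa1, a transcription factor of lung epithelium, by 0.56 on the log2 scale. Etv5, a factor of the budding tips, and the claudin Cldn18 were uncalled at −0.33 and −0.41, and passed in 8 and 2 of 25 alternatives. The surfactant gene Sftpb stayed uncalled at 0.37. Sftpb varied with litter, at 9.28, 9.06, 10.16 and 9.76 in mutants, and 8.98, 9.03, 9.32 and 9.47 in controls, and without mutant litter 4 its change was −0.031. Epcam and Shh were lower in every mutant, at −0.26 and −0.28, and Cldn6 had −0.27, all uncalled. Id2, Sftpc and Nkx2-1 had 0.12, 0.08 and −0.04. The list's mean log2 level was 10.19 to 10.30 over mutants and 10.27 to 10.45 over controls, with a median change of −0.07 against 0.007 for all genes. The part of these markers in the change of Tbx1 was not tested.

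RefSeq promoter windows of the build GRCm38.p6, from 250 bases before to 50 after a start site, were at hand for 6 of the 10 genes: Tbx1 with 2 start sites, Tbx4, Tbx6, Tbx18, Tbx20 and Eomes. CpG-rich promoters are the usual ground of Polycomb binding, so the windows are shown with each CG in capitals for Tbx1, the gene that fell, and for Tbx18, the paralogue of Tbx15. They lie on the minus strand at chr16:18588850-18589149 and chr16:18590622-18590921 for Tbx1 and at chr9:87731211-87731510 for Tbx18.
Tbx1 start site 1: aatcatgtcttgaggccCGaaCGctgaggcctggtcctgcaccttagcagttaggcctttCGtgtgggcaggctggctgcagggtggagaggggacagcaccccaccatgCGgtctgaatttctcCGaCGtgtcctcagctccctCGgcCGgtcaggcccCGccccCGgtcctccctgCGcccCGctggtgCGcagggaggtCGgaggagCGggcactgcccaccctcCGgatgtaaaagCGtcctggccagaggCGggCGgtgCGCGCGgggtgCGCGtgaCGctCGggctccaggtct
Tbx1 start site 2: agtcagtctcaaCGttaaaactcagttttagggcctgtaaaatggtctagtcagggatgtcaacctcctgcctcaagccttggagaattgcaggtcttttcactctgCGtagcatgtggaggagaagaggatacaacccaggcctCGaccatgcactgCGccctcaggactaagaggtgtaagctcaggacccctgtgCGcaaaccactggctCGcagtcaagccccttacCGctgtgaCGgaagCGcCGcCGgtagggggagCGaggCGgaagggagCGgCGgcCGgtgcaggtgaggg
Tbx18: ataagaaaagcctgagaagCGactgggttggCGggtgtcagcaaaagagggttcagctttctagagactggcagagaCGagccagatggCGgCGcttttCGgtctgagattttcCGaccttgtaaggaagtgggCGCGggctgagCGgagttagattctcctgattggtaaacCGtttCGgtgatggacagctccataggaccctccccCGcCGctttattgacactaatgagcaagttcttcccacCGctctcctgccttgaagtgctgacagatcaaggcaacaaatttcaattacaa

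The first Tbx1 window held 26 CG pairs, the second 16 and the Tbx18 window 15. Over 32841 promoter windows of the same length the median was 7 and the third quartile 20. These windows stood at percentiles 83.8, 67.8 and 66.2 of all windows. In Tbx20 there were 26, in Eomes 10, in Tbx4 8 and in Tbx6 7. No window was at hand for Tbx15, and the part of CG content in the changes was not tested. The T-box recognition element AGGTGTGA, or TCACACCT on the other strand, was in none of the 7 windows and in 1.28% of all windows. Without its first letters AG it reads GTGTGA, or TCACAC on the other strand. That shorter form, which the longer one contains, was also in none of the 7 and in 14.5% of all. No binding was measured here, and these counts describe letters in short windows only.

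Among the T-box factors of lung mesenchyme, shifts were small and all 4 were positive. Tbx3 had values of 10.69, 10.71, 10.77 and 10.72 in mutants, and 10.56, 10.46, 10.56 and 10.64 in controls. Every mutant lay above every control, by 0.05 at the nearest embryos, and the log2 change was 0.16 ± 0.06 (SE). Tbx2 had 9.59, 9.65, 9.65 and 9.67 in mutants, and 9.52, 9.45, 9.55 and 9.54 in controls, again without overlap, and a log2 change of 0.12 ± 0.05 (SE). Neither passed limma, where the BH-adjusted p was 0.377 for Tbx3 and 0.503 for Tbx2. The exact permutation p over embryos, two-sided, was 0.0286 for each. Any gene whose groups do not overlap gets that value, as 8.07% of all genes did, so it only restates the lack of overlap.

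Tbx5 had values of 12.08, 12.14, 11.99 and 12.14 in mutants, and 11.94, 11.95, 11.87 and 12.03 in controls, and the groups overlapped, since mutant 3 lay below control 4. Its log2 change was 0.14 ± 0.06 (SE), with a 95% interval of −0.004 to 0.28. Tbx4 had 11.23, 11.32, 11.30 and 11.32 in mutants, and 11.22, 11.23, 11.23 and 11.27 in controls, with mutant 1 inside the control range. Its log2 change was 0.05 ± 0.05 (SE). Limma gave BH-adjusted p of 0.525 for Tbx5 and 0.812 for Tbx4. The intervals of these 4 genes ended at 0.17 to 0.29, which bounds any increase at 1.23-fold for the highest of them. Each of the 4 kept a positive change and stayed uncalled in all 25 alternatives, from 0.02 to 0.21 on the log2 scale.

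The mesenchyme around them differed little in mean level as a list, though without overlap. That mean was 10.284 to 10.312 over mutants and 10.271 to 10.28 over controls. Of 16 mesenchymal markers 0 passed by limma and 3 had an unadjusted p under 0.05, against 9.87% of all genes. The median log2 change was 0.05. In 3 of the 16 every mutant lay above every control, against 4.48% of all genes. In 2 every mutant lay below, against 3.6%. Pdgfra, a receptor of mesenchymal cells, had a log2 change of 0.21, Col1a1, a collagen, 0.25, and Hhip, a Hedgehog-binding protein, −0.22, and none of them passed. The part of these markers in the values of Tbx2 to Tbx5 was not tested.

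Tbx6, Tbx20 and Eomes, which belong to paraxial mesoderm, heart and early mesoderm or brain, were not called, and their groups overlapped. Tbx6 had values of 7.10 to 7.31 in mutants and 7.06 to 7.21 in controls, and a log2 change of 0.09 ± 0.07 (SE). Eomes had 6.34, 6.46, 6.31 and 6.22 in mutants, and 6.58, 6.17, 6.34 and 6.23 in controls, with a log2 change of 0.004 ± 0.10 (SE). Tbx20 varied most of the 3, with 6.42, 6.37, 6.78 and 6.71 in mutants, and 6.26, 6.71, 6.49 and 6.01 in controls. Its log2 change was 0.20 ± 0.16 (SE), with a 95% interval of −0.14 to 0.55 that leaves room for a change of up to 1.46-fold. Heart muscle markers, which would come with attached heart tissue, had a list mean of 7.32 to 7.47 over mutants and 7.29 to 7.42 over controls. Of 18 such markers 0 passed by limma and 4 had an unadjusted p under 0.05, against 9.87% of all genes. The troponin gene Tnnt2 lay at 8.77 to 8.99 in mutants, and in controls at 9.11 in embryo 3 and 8.37 to 8.45 in the others. Tnnt2, Nkx2-5 and Actc1 had uncalled log2 changes of 0.32, 0.30 and −0.48. The myosin light chains Myl7 and Myl4, picked after their values were seen, were highest in controls 3 and 2 of their group (Myl7 8.29 and 8.04, Myl4 7.84 and 7.58). Tbx20 was also highest in these controls, at 6.49 and 6.71. Other values did not share that order: Tnnt2 was lowest in control 2, at 8.37, and Actc1 ran only from 10.82 to 10.88 over controls. Among mutants Myl7 was highest in embryo 4, at 8.42, and Tbx20 in embryo 3, at 6.78. The part of heart tissue in the values of Tbx20 was not tested.

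**Figure D2:**
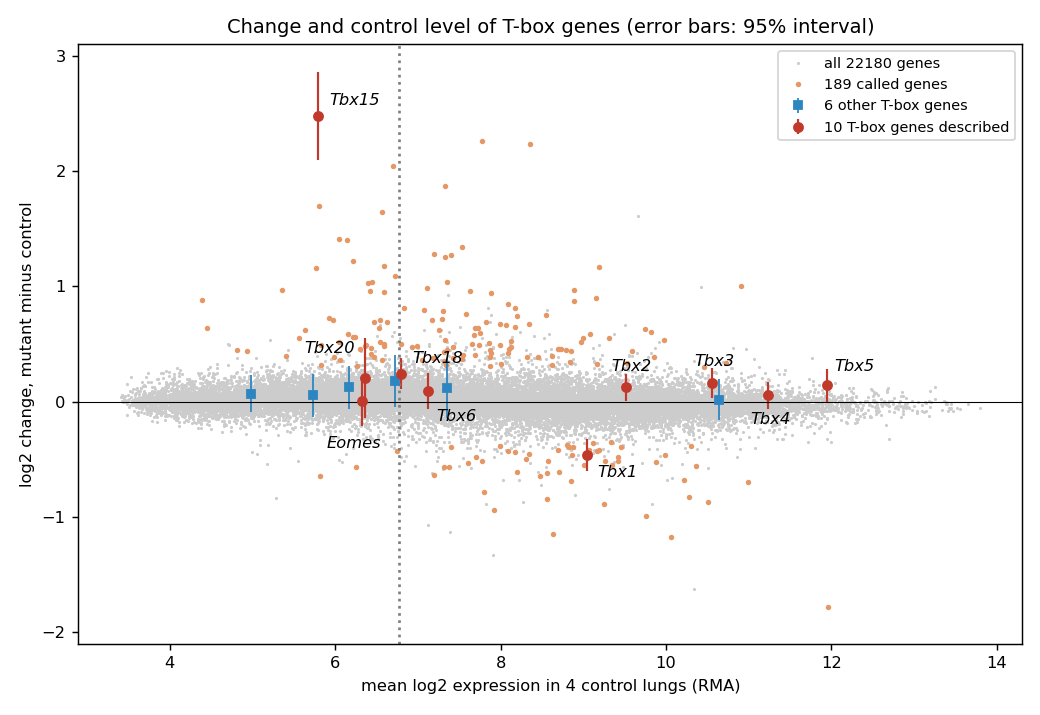
Log2 change, mutant minus control, against the mean log2 expression in 4 control lungs for all 22180 genes (grey), the 189 called genes (orange), the 10 T-box genes (red) and 6 other family members (blue), with 95% intervals. The dotted line stands at 6.77, the 95th percentile of the control means of olfactory receptor genes. Tbx15, Tbx20 and Eomes lie left of it, Tbx15 with the largest change of any gene, and Tbx2 to Tbx5, further right, lie close to 0.

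The family was also split into lung-expressed and silent members at that background level, using the mean over all 8 arrays. By this split 8 genes counted as expressed and 2, Tbx20 and Eomes, as silent. Tbx18 lay just above the border of 6.82, at 6.92, and Tbx20 below it, at 6.47. Tbx15 counted as expressed only through the mutants, with a mean of 7.03 over the 8 arrays. The median log2 change was 0.13 in the 8 expressed genes and 0.10 in the 2 silent genes. By the level in the 4 controls, where the olfactory border was 6.77 and Tbx18 lay just above it at 6.80, the silent group was Tbx15, Tbx20 and Eomes, with log2 changes of 2.48, 0.20 and 0.004, and the expressed group held the other 7. With the border at the 99th percentile of olfactory receptors or at the median of all genes, 5 genes were expressed (Tbx1 to Tbx5) and 5 silent. In each of these other splits the median was 0.12 in expressed and 0.20 in silent genes. Under all 4 splits 1 gene of the expressed group fell, and the increase of Tbx15 was not accompanied by a call in Tbx6, Tbx18, Tbx20 or Eomes. These medians are descriptions, since a score over chosen genes was not tested.

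Outside the set, 6 more family members were measured, and 0 passed by limma, with 0 at an unadjusted p under 0.05 and 0 without overlap. Their log2 changes were 0.18 for Tbx21, the regulator of type 1 helper T cells, 0.12 for Tbx19 of the pituitary, 0.12 for Tbx10, 0.07 for Tbr1 of the cortex, 0.05 for Tbx22 and 0.02 for Mga, a MAX partner with a T-box. All 6 were positive, against 52.9% of all genes, and the median was 0.09. Tbr1, Tbx22, Tbx19 and Tbx21 had means over the 8 arrays of 5.02, 5.76, 6.23 and 6.81, below the olfactory border of 6.82. Tbx10 and Mga lay above it, at 7.42 and 10.65. The antisense gene Tbx3os2 beside Tbx3, named after its value was seen, was uncalled at 0.14.

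Genes beside the T-box loci were examined next, as the 3 nearest tested protein-coding genes on each side in the RefSeq order. Of 48 distinct neighbours outside the set 0 passed by limma. Of the 48, 6 had an unadjusted p under 0.05 (9.87% of all genes) and 5 showed no overlap (8.07% of all genes). Their median log2 change was −0.01. Beside Tbx15, Wars2 and Spag17 had −0.04 and 0.25, and the next genes Hao2, Hsd3b1, Wdr3 and Gdap2 had −0.13, −0.06, −0.15 and −0.25. Spag17, a gene of cilia, was higher in every mutant (limma, BH-adjusted p = 0.334). Beside Tbx1, Gnb1l and Cldn5 had −0.10 and 0.05, and Arvcf, Txnrd2, Cdc45 and Ufd1 had −0.01, 0.01, −0.17 and −0.13. The largest change among all neighbours was that of Nt5e, an ectonucleotidase next to Tbx18, named after its value was seen. Its log2 change of 0.52 just missed the threshold (limma, BH-adjusted p = 0.0505), and the groups did not overlap.

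Tbx2 and Tbx4 are themselves neighbours on chromosome 11, as are Tbx3 and Tbx5 on chromosome 5. The gene on the far side of Tbx2, Bcas3, had a log2 change of 0.16 and Brip1 beyond Tbx4 had −0.05. Med13l before Tbx3 had 0.14 and Rbm19 after Tbx5 had −0.02. None of these 4, named after their values were seen, passed.

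**Figure D3:**
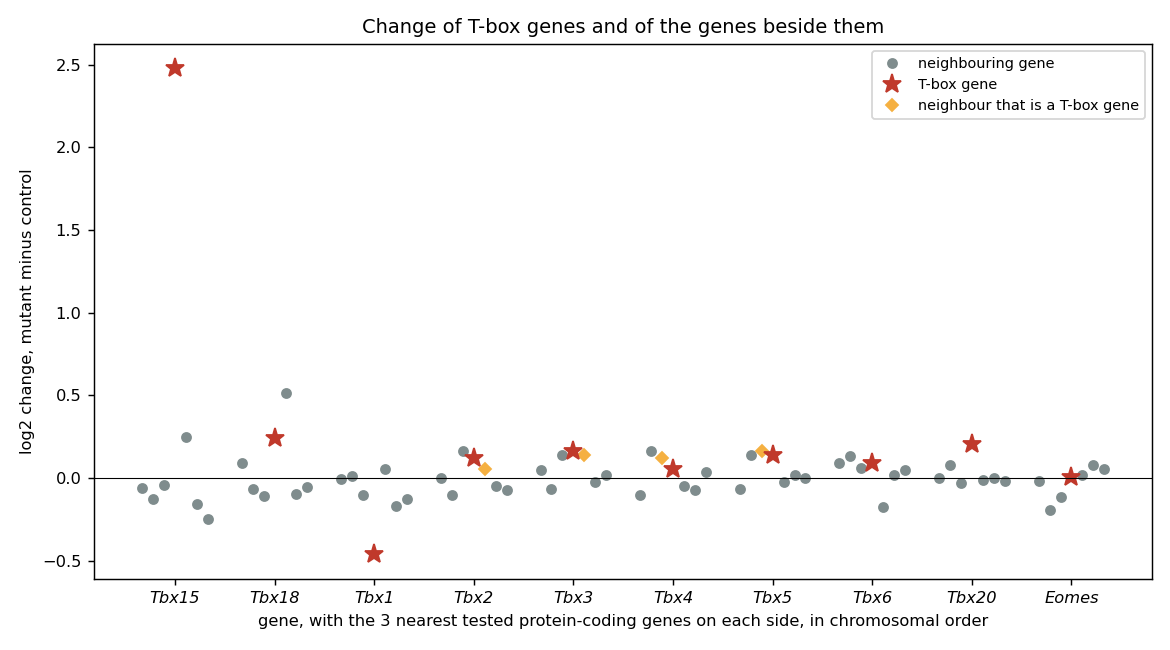
Log2 change, mutant minus control, of each of the 10 T-box genes (stars) and of the 3 nearest tested protein-coding genes on each side (grey points, or yellow diamonds where the neighbour is itself a T-box gene). The neighbours lie between −0.25 and 0.52, and Tbx15 at 2.48 stands apart from the 6 genes around it.

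Genes that T-box factors are known to regulate were taken from lists chosen with earlier results of these data known. Of 16 targets in lung mesenchyme, 4 rose, 0 fell and 12 did not pass, with a median log2 change of 0.09. The 4 were Cdkn1a and Cdkn2a, cell cycle inhibitors that Tbx2 and Tbx3 repress, with increases of 2.24 and 0.49 on the log2 scale, Il33, an alarmin cytokine repressed by Tbx2, with 0.80, and Lef1, a WNT effector, with 0.33. Cdkn1b, another cell cycle inhibitor in the list, went the other way at −0.16 and was not called. For Cdkn1a, Cdkn2a and Lef1 the increase had already been found in these data when the list was drawn up, and is no independent evidence of its direction. Il33 was 7.94, 8.06, 7.78 and 7.69 in mutants, and 7.10, 7.10, 7.06 and 7.02 in controls, well apart (limma, BH-adjusted p = 0.000708). It passed in all 25 alternatives, while Cdkn2a passed in 17 and Lef1 in 11.

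The WNT antagonists Frzb and Shisa3, both repressed by Tbx2 in lung mesenchyme, had differences of −0.24 and −0.15, both uncalled. Frzb averaged only 5.25 in mutants and 5.49 in controls, below the olfactory border. In neither group did Frzb give a signal beyond that of most olfactory receptors. Fgf10, Wnt2 and Spry2, which act in branching, had 0.07, 0.08 and 0.03 and did not pass, and neither did Bmp4 (0.37) or Wnt2b (0.55). Bmp4 averaged 11.44 ± 0.03 in mutants and 11.07 ± 0.32 in controls (SD, n = 4 each), and the groups overlapped through control 3. Its change rested on the control litters, being 0.63 and called without litter 2 (limma, BH-adjusted p = 0.00238) and 0.10 without litter 1.

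Targets known from heart gave 0 calls among 11 by limma, with 1 at an unadjusted p under 0.05 and a median of 0.06. Smpx, Shox2 and Tnni3 had log2 changes of −0.27, 0.15 and 0.15. Of these, Shox2 lay below the olfactory border, with means of 6.66 in mutants and 6.51 in controls. Nppa and Gja5, classical targets of Tbx5 in heart, had 0.07 and −0.11. In the list of pharynx, mesoderm and endoderm 1 of 19 fell, Cer1, a secreted antagonist of Nodal and BMP, by 0.57 on the log2 scale. Cer1 had a BH-adjusted limma p of 0.0395 and passed in 12 of 25 alternatives, at an adjusted p of up to 0.195 in the others. The Tbx1 targets Fgf8 and Aldh1a2 had −0.11 and −0.21, Cyp26b1, which degrades retinoic acid, 0.19, and Foxa2 of the endoderm −0.20, and none of these passed. Fgf8 averaged only 5.77 in mutants and 5.87 in controls, below the olfactory border.

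Partners and corepressors of T-box factors gave 0 calls among 26 by limma, and 0 to 3 in the alternatives. Of the 26, 6 had an unadjusted p under 0.05 and 20 had positive changes, against 9.87% and 52.9% of all genes. In 5 every mutant lay above every control and in 1 below, against 4.48% and 3.6% of all genes. The largest were Isl1, a LIM homeodomain factor, with a log2 change of 0.60, Sall1 with 0.43 and the cardiac factor Nkx2-5 with 0.30. Sall1 averaged only 6.19 in mutants and 5.76 in controls, below the olfactory border in both groups. Isl1 was higher in every mutant and missed the threshold (limma, BH-adjusted p = 0.0661), and it passed in 7 of 25 alternatives. Tle1 and Tle3, corepressors of the Groucho family, had 0.07 and 0.06.

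**Figure D4:**
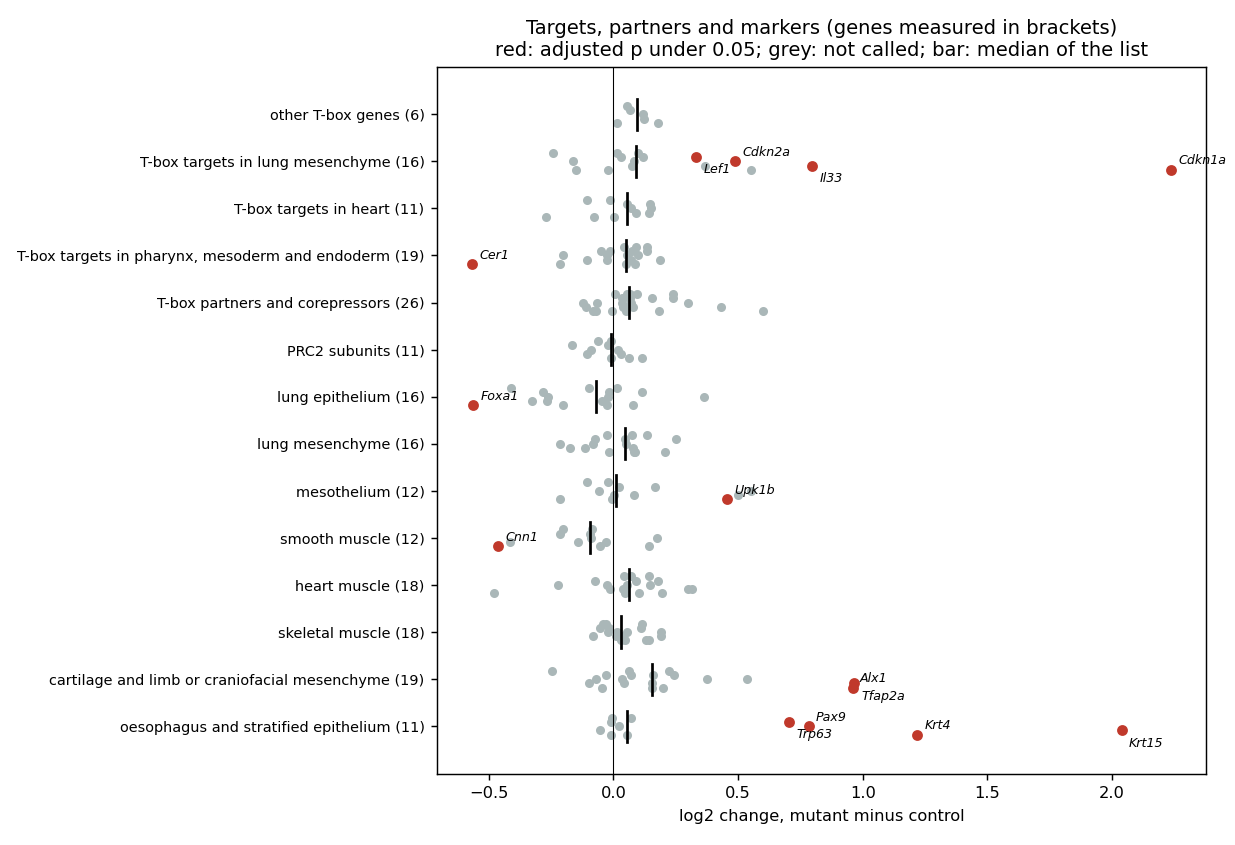
Log2 change, mutant minus control, of each measured gene in the lists of other T-box genes, T-box targets and partners, PRC2 subunits and cell type markers. Red points passed an adjusted p of 0.05, grey points did not, and the black bar is the median of a list. The lists of T-box targets in lung mesenchyme and of stratified epithelium hold 4 called genes each, all higher in mutants.

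Markers of tissues in which Tbx15 is known to act were set beside its increase. All marker lists were chosen with earlier results of these data known, so a called gene in them is no independent evidence of its direction. Of 18 skeletal muscle genes 0 passed by limma, with 2 at an unadjusted p under 0.05. The list mean was 6.64 to 6.72 over mutants and 6.60 to 6.68 over controls. Myh8, Pax7 and Neb had the largest log2 changes, of 0.19, 0.19 and 0.14, and were not called. Myod1, Myf5 and Myog, which define the muscle lineage, had log2 changes of 0.13, −0.04 and −0.08. Of 19 genes of cartilage and of limb or craniofacial mesenchyme 2 rose, Alx1 and Tfap2a, with 0.96 and 0.97 on the log2 scale. The list mean was 7.24 to 7.37 over mutants and 7.06 to 7.13 over controls, without overlap. Of the 19 changes 14 were positive, and 8 had an unadjusted p under 0.05, against 9.87% of all genes. In 6 of the 19 every mutant lay above every control, against 4.48% of all genes. The largest uncalled changes were those of Tfap2b (0.54), a relative of Tfap2a, Msx2 (0.37), a homeobox factor of limb and skull, and Col2a1 (−0.24), the collagen of cartilage. Tfap2a and Tfap2b averaged only 6.32 and 5.75 in mutants, below the olfactory border of 6.82. Sox9, Acan, Matn1, Alx4 and Dlx2 had −0.10, 0.04, −0.05, 0.06 and −0.03, all uncalled. The median change was 0.15, against 0.007 for all genes, and the part of such mesenchyme in the increase of Tbx15 was not tested.

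Genes of oesophagus and stratified epithelium gave 4 increases among 11 (Krt15, Krt4, Pax9 and Trp63, all known from these data when the list was drawn up) and 0 decreases. That list's mean was 6.49 to 6.56 over mutants and 6.02 to 6.15 over controls. Krt14 and Dsg3 of the same tissue were uncalled at −0.06 and 0.07. The list's median change was 0.06, so its mean differed through those 4 genes. The part of this tissue in the increase of Tbx15 was not tested.

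Mesothelium, where Tbx18 is known, had 1 gene that rose among 12, the uroplakin Upk1b, by 0.46 on the log2 scale. That call held in 19 of 25 alternatives, with an adjusted p of up to 0.0983 by limma in the others. Wnt2b, Krt19 and Aldh1a2 had 0.55, 0.50 and −0.21 and were not called. The list's mean level was 8.28 to 8.41 over mutants and 8.20 to 8.26 over controls, without overlap, and its median change was 0.01. The part of mesothelium in the values of Tbx18 was not tested.

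Smooth muscle, which surrounds airways and vessels, was lower in mutants as a list mean, at 9.69 to 9.83 over mutants and 9.87 to 9.95 over controls. Of 12 genes 1 fell, the calponin Cnn1, by 0.46 on the log2 scale. Of the 12 changes 10 were negative, where 52.9% of all genes had positive ones. In 5 the unadjusted p was under 0.05, against 9.87% of all genes. The call of Cnn1 held in 14 of 25 alternatives, with an adjusted p of up to 0.143 by limma in the others. The actin Actg2, the regulator Myocd and the myosin Myh11 had −0.41, −0.22 and −0.20 and were not called. Itga8 and Mylk, the 2 with positive changes, had 0.18 and 0.14, and Itga8 was higher in every mutant. Acta2, Tagln and Des had −0.05, −0.10 and −0.03, all uncalled like Itga8 and Mylk. The part of smooth muscle in the values of the T-box genes was not tested.

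The genes whose log2 values followed Tbx15 most closely over the 8 arrays were Trp63, Rtl3, Gldc, Zmat3 and Cbr2, with Pearson correlations of 0.988, 0.987, 0.986, 0.986 and 0.985. All 5 were called higher in mutants, so these correlations chiefly restate the difference between the groups. For Tbx1 they were Foxa1, Aldh16a1, Fmod, Ddo and Fam13a, with 0.987, 0.980, 0.973, 0.966 and 0.966, and Foxa1, Fmod and Fam13a were called lower. When group means were removed, the closest genes were Slc27a5, Ly6d, Crb1, Clec10a and Drap1 for Tbx15 (0.981 to 0.993) and Serpina3b, Kremen2, Kcnj16, Ttc36 and Amy2b for Tbx1 (0.970 to 0.999). None of these 10 was called, and none was among the closest before. All these values share the same 8 arrays and were picked as the highest of 22180 genes.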

How the data were processed

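RNA of 8 whole lungs was measured on 1-colour Affymetrix arrays. The authors deposited log2 levels per probe set, made with RMA in the package oligo per the submitters' processing notes, which also name limma. No version or option is stated there. RMA makes array distributions alike and draws changes of dim genes towards 0. Of 41345 probe sets 23521 had a single symbol, and the brightest over 8 arrays stood for each of 22180 genes. The genotype contrast was fitted in limma 3.58.1 (R 4.3.3), two-sided, with a random litter effect (correlation 0.153) and Benjamini-Hochberg adjustment over all genes. Single genes also had an exact permutation test over embryos, which takes littermates as independent. Embryos are separate animals, but littermates share a dam, and litter is nested in genotype. For arrays, their number limits the precision. Figures used matplotlib 3.10.9.

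The members and lists were chosen with earlier results of these data known. Named genes are the members, the other T-box genes, called genes and up to 3 uncalled genes with the largest change per list, neighbours of called members, and the 5 genes most alike. Others, such as standard markers and known targets, were named after their values were seen. Same-numbered mutants and controls are not littermates, and their deviations correlated at −0.27 to 0.03, so numbers do not pair embryos. Alternatives covered litters, sex, single embryos, dim genes, probe sets, scaling and variance priors. The promoters of Tbx2, Tbx3, Tbx5 and Tbx15 were not analysed here.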

Additional observations from a re-analysis of the deposited data

Results flagged for a closer look

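Single embryos stood far from the other 3 of their group in 10 of 158 groups of 4 values, where chance gives about 1 in 20, or 7.9. In the T-box family these were mutant 1, lowest for Tbx4 at a log2 value of 11.23, mutant 3, highest for Tbx10 at 7.80 and lowest for Tbr1 at 4.87, and control 2, highest for Tbx10 at 7.56. Outside it, control 3 was highest for Tnnt2 at 9.11, Foxa2 at 9.44 and Cdc45 at 9.56 and lowest for Lef1 at 9.43, control 4 was highest for Etv5 at 11, and mutant 3 was lowest for Krt15 at 8.45. Values of Tbx15 and Tbx1 had no such embryo.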

How the results depend on the processing

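Tbx15 stayed called in 25 of 25 alternatives (log2 changes of 2.24 to 2.72) and Tbx1 in 24 of 25 (−0.54 to −0.39). With litter means Tbx1 kept −0.46 and lost its call, leaving 0 members lower, and with the Xist level as a covariate Tbx18 gained one at 0.25, giving 2 members higher. The other members except Eomes kept their sign and stayed uncalled. With the replicate number as a replicate block, Tbx15 and Tbx1 kept 2.48 and −0.46 with adjusted p of 0.00111 and 0.0231 by limma, and the counts over all genes were 140 higher and 55 lower; no member's call changed. Those counts, 134 and 55 as reported, were 65 and 33 with litter means, 361 and 313 with the Xist covariate, 84 and 30 without litter 4, 79 higher with high-Xist embryos only (chosen after seeing the data), and lower 95 with no litter block, 121 and 103 without litter 1 or 3, 34 with all probe sets and 91 after quantile normalization. Leaving out single embryos gave 73 to 157 higher and 28 to 75 lower, the fewest without mutant 4, followed by 89 and 32 without control 4. With borders at the 99th percentile or at the median of all genes 5 members were expressed and 5 silent. In these and by control level the silent median was 0.20, the value of Tbx20. With dim genes left out, Tbx20 and Eomes had no value. Some uncalled genes changed sign, all but Sftpb (0.37) with a change within 0.08 of 0. Eomes had −0.054 to 0.087 over single embryos left out, −0.040 and −0.063 without litter 2 or 3, −0.026 with median centring and −0.037 after quantile normalization. Without litter 4 Tbx22, Sftpb, Dsg3, Arvcf, Txnrd2, Cldn5 and Wars2 had −0.032, −0.031, −0.019, 0.048, −0.0037, −0.0020 and 0.023. Without litter 2 Mga and Arvcf had −0.023 and 0.10, without litter 3 Mga and Hsd3b1 −0.028 and 0.047, and without litter 1 Krt14 and Cldn5 0.063 and −0.035. Median centring gave Mga −0.014 and Txnrd2 −0.019, quantile normalization Arvcf 0.0098 and Txnrd2 −0.0058, array weights Mga −0.015 and Arvcf 0.013, the Xist covariate Krt14 0.015, and high-Xist embryos Sftpb −0.026 and Cldn5 −0.064. Over single embryos left out Mga ran from −0.038 to 0.055, Krt14 from −0.15 to 0.058, Arvcf from −0.041 to 0.030, Txnrd2 from −0.018 to 0.029, Hsd3b1 from −0.13 to 0.0066. The causes were not tested.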
